A study of Mus musculus with 9 samples.

Results

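The genes described here encode the transferases of phase II drug metabolism in mouse liver, namely the UDP-glucuronosyltransferases (UGT), the cytosolic sulfotransferases (SULT), the glutathione S-transferases (GST) and the microsomal GSTs (MGST). They were chosen by symbol as all protein-coding genes whose names begin with Ugt1a, Ugt2a, Ugt2b, Ugt3a, Sult, Gst or Mgst followed by a class or member number, which gave 67 of the 54532 genes in the deposited table: 21 UGT, 21 SULT, 22 GST and 3 MGST genes. Liver RNA was sequenced from 9 male C57BL/6 mice, with 3 mice per group (NC, APAP and AMSC). NC mice were the controls. APAP mice were fasted overnight, received a single intraperitoneal dose of acetaminophen (500 mg/kg) and had their livers taken at 6 h. AMSC mice received the same dose and, right after it, adipose-derived mesenchymal stem cells grown from inguinal fat of C57BL/6 mice, by tail vein, and were also studied at 6 h. The study's methods describe fasting of all animals before APAP, which leaves it unclear whether the NC mice, which got none, were fasted too. No group here received cells without APAP. The replicate numbers are 1, 2 and 3 in the NC and APAP groups and 2, 3 and 4 in the AMSC group. The sample title of NC replicate 3 carries an earlier date than those of all other libraries, and what the date marks is not given.

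Phase II enzymes attach a polar group to a drug or an endogenous compound so that it can leave the cell in bile or urine. UGTs are membrane proteins of the endoplasmic reticulum that use UDP-glucuronic acid, SULTs are cytosolic and use 3'-phosphoadenosine 5'-phosphosulfate (PAPS), and GSTs join glutathione to electrophiles. Acetaminophen itself is mainly glucuronidated and sulfated in the liver, while the reactive quinone imine that cytochrome P450 enzymes such as Cyp2e1 make from it reacts with glutathione, alone or through GSTs, and binds to proteins once glutathione is used up.

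Between 13418921 and 16210930 reads per library lay on genes, and values are FPKM (fragments per unit of gene length and of library size, as scaled by the authors). For a gene 1 kb long, one read amounted to 0.0578 to 0.0807 FPKM. The test covered 9699 genes, those that averaged 1 FPKM or more across libraries. The hepatocyte markers fixed for a check of the tissue label, all 8 of them, were tested and summed to 47561 to 51944 FPKM in NC, 65076 to 78332 in APAP and 59322 to 62733 in AMSC livers. These are bulk livers, so fewer cells of a type and less RNA per cell cannot be told apart.

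Of the 67 members, 42 reached the filter (14 UGT, 6 SULT, 20 GST and 2 MGST genes), 16 were above 0 in at least 1 library but under the filter, and 9 were at 0 in every library. These 9 were Ugt2a1 and Ugt2a2, which are known from the olfactory epithelium, and 7 SULT genes, among them Sult2a3 to Sult2a6 and Sult3a2. Ugt2a1 shares 98.8% and Ugt2a2 94.5% of its exon bases with the other or with Gm43638. The counting rule is not known, so absence and uncounted shared reads cannot be told apart for Ugt2a1 and Ugt2a2. Several Sult2a and Sult3a genes are known as female-predominant in mouse liver. There were 14 members with a mean above 100 FPKM.

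Per length, GSTs held 53.4% of the summed FPKM of all members, UGTs 23.5%, MGSTs 16.1% and SULTs 6.98%. Gstp1, the pi-class enzyme known to be predominant in male mouse liver, gave 57.7% of the GST sum, Mgst1 99.3% of the MGST sum, Sult1a1, the phenol sulfotransferase, 45.0% of the SULT sum, and Ugt2b5, a steroid and xenobiotic UGT, 32.2% of the UGT sum. The summed level of all members was 6811 ± 957 FPKM in the NC, 7109 ± 628 in the APAP and 7153 ± 252 in the AMSC group (SD, n = 3). GSTs summed to 3341 ± 544, 4022 ± 851 and 3891 ± 159 FPKM in the same order, and UGTs to 1741 ± 232, 1667 ± 272 and 1554 ± 89.1 FPKM. SULTs summed to 533 ± 69.3, 450 ± 33.4 and 488 ± 38.9 FPKM, and MGSTs to 1196 ± 160, 970 ± 152 and 1220 ± 148 FPKM. In each of the 4 families the libraries of the 3 groups overlapped.

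**Figure D1:**
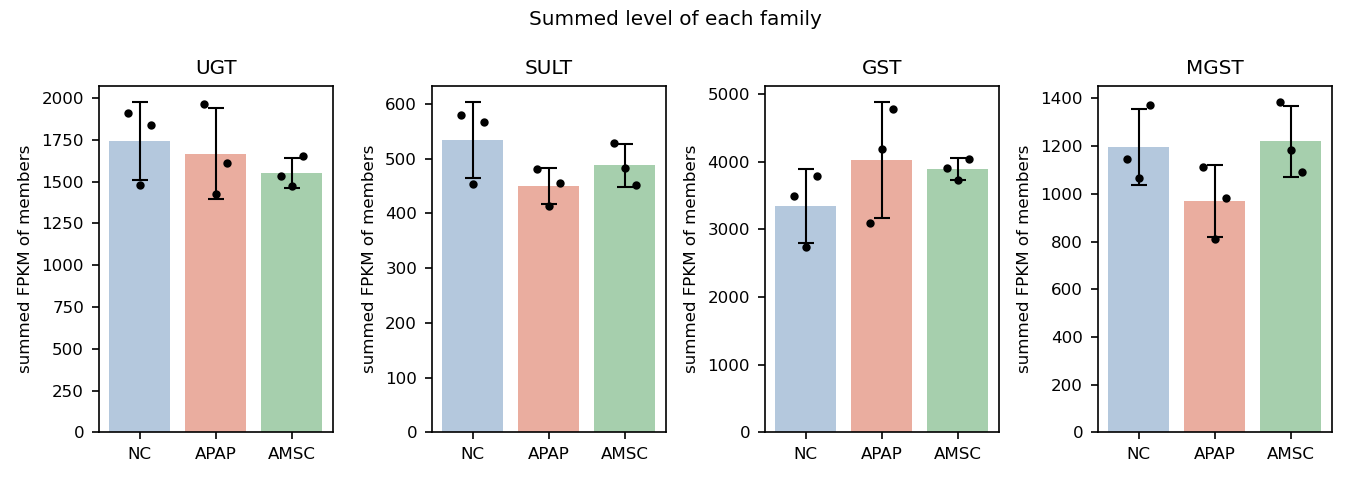
Summed FPKM of the members of each family (y axis, one panel per family) in the NC, APAP and AMSC groups (x axis). Bars are means, error bars SD and dots the 3 libraries of a group. In the GST panel the APAP libraries spread widest, from 3098 to 4775 FPKM, and in each panel the groups overlap.

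Many members lie in tandem clusters of similar genes (coordinates on GRCm38). The 9 Ugt1a genes lie at chromosome 1, 88055388 to 88220002, and use their own first exon with shared last exons. The Ugt2b and Ugt2a genes with Sult1b1, Sult1d1 and Sult1e1 lie at chromosome 5, 86889767 to 87591594. The 7 Gstm genes lie at chromosome 3, 107895821 to 108044894, the 3 Gstp genes at chromosome 19, 4035407 to 4059446, and Gsta1, Gsta2 and Gsta4 at chromosome 9, 78182774 to 78355788, whereas Gsta3 lies alone on chromosome 1. Reads could be split between near copies, which makes the separate values of the following genes uncertain. Coding sequences were identical at 97.6% of aligned bases between Gsta1 and Gsta2, at 98.1% between Gstp1 and Gstp2, at 97.0% between Ugt2b5 and Ugt2b38 and at 84.7% between Gstm2 and Gstm3. The same limit holds for other pairs, such as Ugt2b5 and Ugt2b37 (94.65%), Ugt3a1 and Ugt3a2 (93.2%) and Ugt2b35 and Ugt2b36 (88.3%). Each Ugt1a gene also shares exon bases with the other Ugt1a genes, 59.0% of them in Ugt1a1 and 59.9% in Ugt1a9, and overlaps the antisense gene Gm20528.

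Gsta1 and Gstp2 were the members with the largest rises after APAP, and each has a near copy that is far more abundant in NC liver (Gsta2 and Gstp1). Gsta3 is the alpha-class gene that fell. The 250 bases upstream of the RefSeq start of these 5 genes (GRCm38.p6, 5′ to 3′ on the strand of the gene) are shown so that the near copies can be compared. Capitals mark matches to the antioxidant response element core TGACNNNGC and to the AP-1 motif TGANTCA, searched on both strands.
Gsta1, chr9:78230419-78230668, + strand: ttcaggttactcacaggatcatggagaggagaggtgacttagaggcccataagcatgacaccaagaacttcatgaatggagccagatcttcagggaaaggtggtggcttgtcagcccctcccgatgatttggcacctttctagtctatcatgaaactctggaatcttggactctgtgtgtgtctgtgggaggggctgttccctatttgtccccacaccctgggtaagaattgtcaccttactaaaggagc
Gsta2, chr9:78347146-78347395, - strand: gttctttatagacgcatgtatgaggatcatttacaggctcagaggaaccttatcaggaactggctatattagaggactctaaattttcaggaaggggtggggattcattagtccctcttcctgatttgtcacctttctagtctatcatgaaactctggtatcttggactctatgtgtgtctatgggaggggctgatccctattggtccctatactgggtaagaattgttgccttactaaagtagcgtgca
Gstp1, chr19:4037913-4038162, - strand: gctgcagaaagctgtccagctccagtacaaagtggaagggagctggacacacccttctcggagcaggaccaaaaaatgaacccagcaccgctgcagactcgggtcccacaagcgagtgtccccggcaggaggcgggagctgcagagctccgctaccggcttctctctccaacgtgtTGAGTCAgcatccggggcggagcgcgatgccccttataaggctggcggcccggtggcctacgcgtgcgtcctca
Gstp2, chr19:4042222-4042471, - strand: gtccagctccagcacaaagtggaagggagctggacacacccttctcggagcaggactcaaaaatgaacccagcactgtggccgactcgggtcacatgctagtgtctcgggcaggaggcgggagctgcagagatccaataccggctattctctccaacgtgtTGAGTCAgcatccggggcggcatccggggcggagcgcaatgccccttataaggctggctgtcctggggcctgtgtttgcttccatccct
Gsta3, chr1:21240335-21240584, + strand: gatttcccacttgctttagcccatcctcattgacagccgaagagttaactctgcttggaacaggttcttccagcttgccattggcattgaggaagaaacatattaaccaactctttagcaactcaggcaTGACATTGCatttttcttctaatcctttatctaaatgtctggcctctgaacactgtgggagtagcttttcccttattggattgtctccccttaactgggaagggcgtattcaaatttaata
The upstream bases were identical at 70.5% of aligned positions between Gsta1 and Gsta2 and at 78.1% between Gstp1 and Gstp2, less than the coding sequences. The RefSeq start of Gsta2 differs from the end of the deposited gene model, so its window is that of RefSeq only. Gstp1 and Gstp2 share the AP-1 letters TGAGTCA, at -74 to -68 in Gstp1 and at -89 to -83 in Gstp2 relative to the start. Gsta3 holds the letters TGACATTGC at -121 to -113, and neither Gsta1 nor Gsta2 holds either motif within this window. Among 27025 upstream windows of the same length, 10.2% held the antioxidant response element core and 6.87% the AP-1 motif. Of the 38 tested members with a RefSeq window, 3 held the first (Gsta3, Gstm5 and Mgst1) and 7 the second (Gstp1, Gstp2, Gstm5, Ugt2b1, Ugt2b35, Ugt2b37 and Ugt2b38). The xenobiotic response element core GCGTG, left in lower case above, was held by 8 of the 38 and by 28.2% of all windows. A match of letters is a description and not a site.

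The first comparison asked how phase II genes differed 6 h after APAP from NC livers. GST genes moved in both directions. The alpha-class gene Gsta1 and the pi-class gene Gstp2 rose, and the alpha-class gene Gsta3 and the theta-class gene Gstt3 fell. None of the 14 tested UGT, 6 SULT and 2 MGST genes passed the adjusted p of limma. Fold changes are on the scale of log2(FPKM + 1), which makes those of low genes smaller, and p-values are from limma with Benjamini-Hochberg adjustment over all genes tested. Of the 42 tested members, 4 passed an adjusted p of 0.05 (9.52%), against 25.9% of all genes tested, and 2 of them also had a log2 fold change of at least 1 and are called differentially expressed genes (DEGs) here, where 7.90% of all genes tested were DEGs. The APAP and NC libraries did not overlap for 9 of the 42 members, against 43.2% of all genes tested. The share of members that passed was thus below the background, although the median absolute log2 fold change was 0.33 over the members and 0.28 over all genes tested. The median standard error was 0.20 over the members and 0.15 over all genes tested. At an unadjusted p under 0.05, limma gave 3 UGT, 1 SULT and 0 MGST genes, and limma with voom on reads recovered from the FPKM values passed 1 UGT gene (Ugt1a9), 0 SULT and 0 MGST genes after adjustment.

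**Figure D2:**
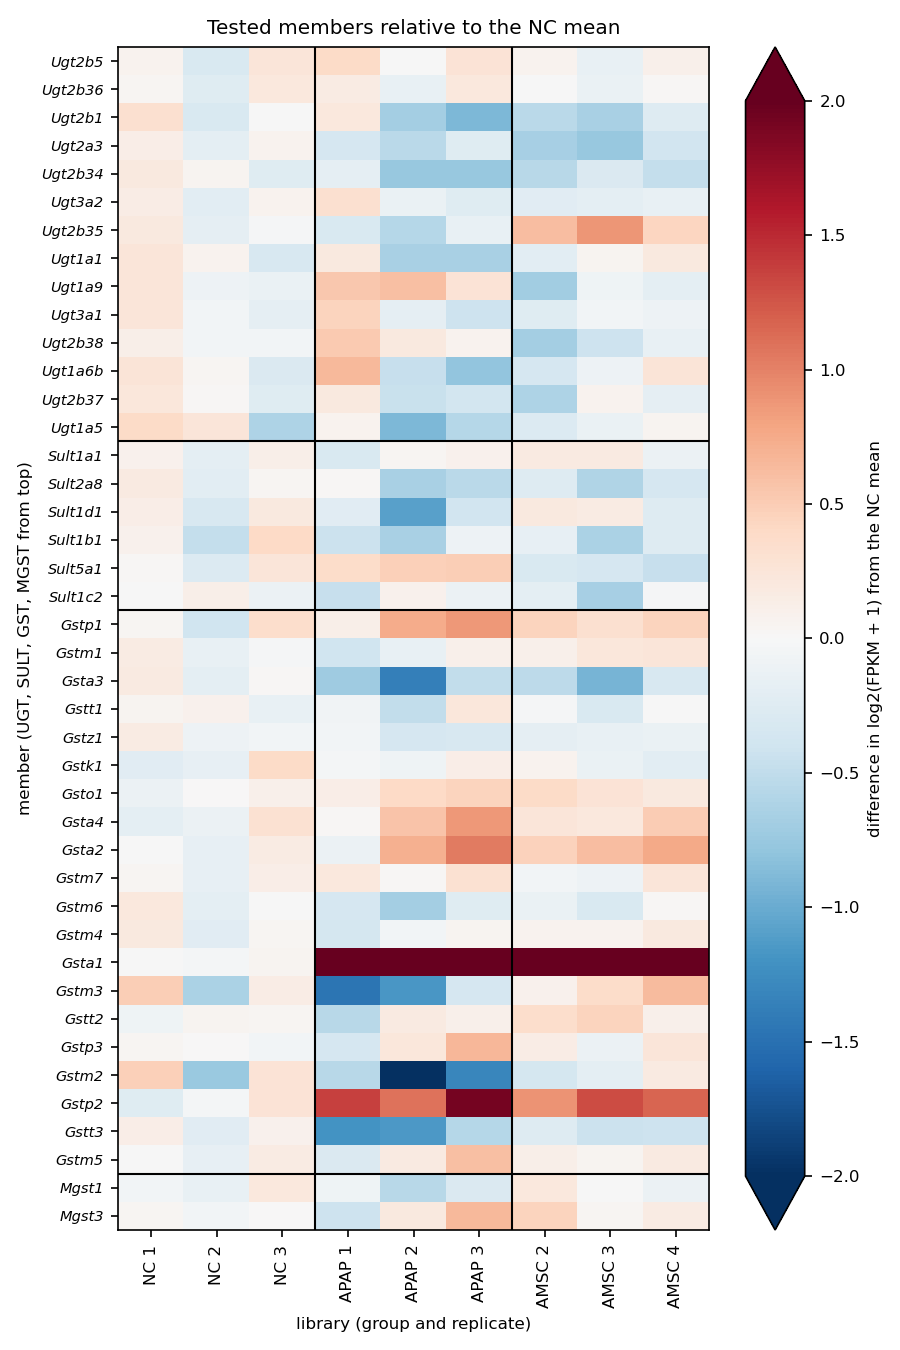
Difference in log2(FPKM + 1) of each tested member from its NC mean (colour, red higher and blue lower) in each of the 9 libraries (x axis), with UGT, SULT, GST and MGST genes from top to bottom (y axis). Gsta1 and Gstp2 are red in all APAP and AMSC libraries, and in APAP 1 many genes differ from APAP 2 and APAP 3. Values beyond 2 in either direction have the end colours.

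Gsta1 (ENSMUSG00000074183, chromosome 9, 78230656 to 78242684) encodes an alpha-class GST that is known to be inducible by electrophiles. It stood at 1.13, 1.09 and 1.22 FPKM in NC livers 1, 2 and 3, at 9.28, 63.6 and 47.6 FPKM in APAP livers 1, 2 and 3, and at 13.4, 28.6 and 18.6 FPKM in AMSC livers 2, 3 and 4. All treated livers were above all NC livers, and APAP liver 1 was the lowest of the treated ones. The NC values rest on 18, 18 and 20 reads, and those of APAP on 119, 754 and 611 reads. In APAP against NC the log2 fold change was 3.89 (SE 0.60, adjusted p = 0.00374 from limma), and the ratio of mean FPKM was 35.1. Gsta2 (ENSMUSG00000057933), its near copy, had 23.3, 21.0 and 26.6 FPKM in NC, 21.5, 39.1 and 49.3 FPKM in APAP, and 32.9, 36.5 and 40.5 FPKM in AMSC livers. APAP liver 1 lay within the NC range, and the log2 fold change of Gsta2 in APAP against NC was 0.54 (SE 0.28, 95% interval -0.11 to 1.19, adjusted p = 0.191). Summed over both copies, the level was 24.7 ± 2.87 FPKM in NC, 76.8 ± 40.0 in APAP and 56.9 ± 9.62 in AMSC livers (SD, n = 3). The sums did not overlap between the NC group and either treated group.

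Gstp2 (ENSMUSG00000038155, chromosome 19, 4040285 to 4042236) is the minor of the pi-class near copies. Its level was 3.42, 4.13 and 5.36 FPKM in NC, 12.6, 10.2 and 18.8 FPKM in APAP, and 8.75, 11.9 and 10.8 FPKM in AMSC livers. Every treated liver was above every NC liver. Against NC, Gstp2 in APAP livers rose by 1.46 on the log2 scale (SE 0.23, adjusted p = 0.00403). Gstp1 (ENSMUSG00000060803) was at 1726, 1273 and 2142 FPKM in NC, at 1812, 2811 and 3054 FPKM in APAP, and at 2285, 2093 and 2283 FPKM in AMSC livers. APAP liver 1 was between the NC livers and the other APAP livers were above them, and the log2 fold change of Gstp1 was 0.57 (SE 0.26, 95% interval -0.02 to 1.17, adjusted p = 0.141). The sum of both copies was 1718 ± 435 FPKM in NC, 2573 ± 660 in APAP and 2231 ± 109 in AMSC livers (SD, n = 3), and the part of reads from Gstp1 in the change of Gstp2 was not tested. Calls of Gsta1 and Gstp2 against NC held in every alternative and without any single library, with adjusted p up to 0.0471 for Gsta1 and 0.0406 for Gstp2 in the APAP comparison, both when all genes above 0 were tested.

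The genes that fell are also GSTs. Gsta3 (ENSMUSG00000025934, chromosome 1, 21240589 to 21265661), the main constitutive alpha-class GST of mouse liver, which is known to detoxify aflatoxin epoxide, stood at 333, 257 and 299 FPKM in NC, at 179, 113 and 208 FPKM in APAP, and at 204, 154 and 236 FPKM in AMSC livers. No treated liver reached the lowest NC liver. In APAP against NC the log2 fold change was -0.86 (SE 0.23, adjusted p = 0.0305), a call lost when all genes above 0 were tested (adjusted p = 0.128) and without NC replicate 1 (0.106), NC replicate 2 (0.0580), NC replicate 3 (0.0765) or APAP replicate 2 (0.0595). Gstt3 (ENSMUSG00000001665), a theta-class gene, stood at 12.4, 9.44 and 11.9 FPKM in NC, 4.35, 4.52 and 7.22 FPKM in APAP, and 9.21, 8.07 and 8.14 FPKM in AMSC livers. The 3 groups were ordered NC, AMSC and APAP with no overlap. The log2 fold change was -0.97 (SE 0.19, adjusted p = 0.0103), and this call was lost only when all genes above 0 were tested (adjusted p = 0.0630).

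Other GSTs of high level did not pass. Gstm1, the main mu-class GST, had 758 ± 86.2 FPKM in NC and 689 ± 121 in APAP livers (SD, n = 3), a log2 fold change of -0.15 (95% interval -0.54 to 0.24, adjusted p = 0.559). Gstt1, which conjugates small halogenated compounds, had a log2 fold change of -0.12 (95% interval -0.56 to 0.33, adjusted p = 0.692). Gstm3 (27.2, 11.95 and 21.2 FPKM in NC against 6.31, 7.94 and 14.9 in APAP livers) had -0.99 (SE 0.36, adjusted p = 0.0790), with overlapping groups. Gstm2, named after its values were seen, had 22.8, 9.20 and 19.7 FPKM in NC and 10.6, 1.83 and 5.94 FPKM in APAP livers, which gave -1.49 on the log2 scale (SE 0.52, adjusted p = 0.0718).

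In APAP against NC, none of the Ugt1a genes above the filter passed the test, while Ugt1a6a, below the filter, is described at the end. Ugt1a1, the bilirubin UGT, was at 37.4, 32.9 and 24.9 FPKM in NC, at 36.1, 19.7 and 19.7 FPKM in APAP, and at 26.9, 32.5 and 36.1 FPKM in AMSC livers. The log2 fold change of Ugt1a1 in APAP against NC was -0.36 (95% interval -0.96 to 0.23, adjusted p = 0.336). Ugt1a6b, a UGT of small phenols, was at 14.0, 11.8 and 9.24 FPKM in NC and at 18.7, 8.16 and 6.28 FPKM in APAP livers, with a log2 fold change of -0.20 (95% interval -1.01 to 0.61, adjusted p = 0.715). In both genes APAP liver 1 was at or above the NC mean and the other APAP livers were below every NC liver. Ugt1a9, which acts on bulky phenols, went from 26.7, 20.9 and 20.3 FPKM in NC to 33.0, 34.6 and 27.5 FPKM in APAP livers without overlap, which gave 0.47 on the log2 scale (SE 0.15, adjusted p = 0.0562), and it passed under voom and with the replicate block (0.0347).

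Among the Ugt2 genes, which act on steroids, bile acids and drugs, Ugt2b5 had a log2 fold change of 0.22 in APAP against NC (95% interval -0.20 to 0.64, adjusted p = 0.420) and Ugt2b36 one of 0.08 (95% interval -0.31 to 0.46, adjusted p = 0.763), and both turned negative after quantile normalization (-0.15 and -0.23). Ugt2b1 had 368, 238 and 294 FPKM in NC against 341, 183 and 158 FPKM in APAP livers (log2 fold change -0.46, 95% interval -1.15 to 0.23, adjusted p = 0.291). Ugt2a3 had 210, 165 and 199 FPKM in NC, 150, 131 and 161 FPKM in APAP, and 119, 112 and 146 FPKM in AMSC livers. All treated livers were below all NC livers for Ugt2a3, but the fold change of -0.37 in APAP against NC (SE 0.15, adjusted p = 0.0981) did not pass. Over the 14 tested UGT genes, the fitted fold changes lay between -0.56 and 0.47 with a median of -0.20, while the median of all genes tested was -0.00.

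In the SULT family, Sult1a1 was at 219 ± 24.3 FPKM in NC and 211 ± 29.8 in APAP livers (SD, n = 3), a log2 fold change of -0.06 (95% interval -0.42 to 0.31, adjusted p = 0.812). Sult1d1, which sulfates catecholamines and eicosanoids, was at 68.5, 49.8 and 71.4 FPKM in NC and 53.1, 28.9 and 47.9 FPKM in APAP livers (-0.56, SE 0.25, adjusted p = 0.133). Sult2a8, a hepatic bile acid sulfotransferase, was at 236 ± 31.9 FPKM in NC and 183 ± 48.6 in APAP livers, with a log2 fold change of -0.39 (95% interval -0.86 to 0.09, adjusted p = 0.200). Sult1b1, which sulfates thyroid hormones and small phenols, had -0.39 (95% interval -0.95 to 0.17, adjusted p = 0.268). Sult5a1 had a positive one (0.44, SE 0.15, adjusted p = 0.0659) and is described with the AMSC comparison. Mgst1, a membrane-bound GST and peroxidase, was at 1137, 1062 and 1368 FPKM in NC and 1109, 803 and 972 FPKM in APAP livers, with a log2 fold change of -0.31 (95% interval -0.70 to 0.08, adjusted p = 0.215). Mgst3 had a log2 fold change of 0.14 (95% interval -0.42 to 0.71, adjusted p = 0.698), and Mgst2 was at no more than 0.0539 FPKM in any library. The intervals of Sult1a1, Gstm1, Ugt2b5, Ugt2b36 and Mgst1 exclude a change of 1 on the log2 scale in either direction, which does not show that these levels were the same.

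**Figure D3:**
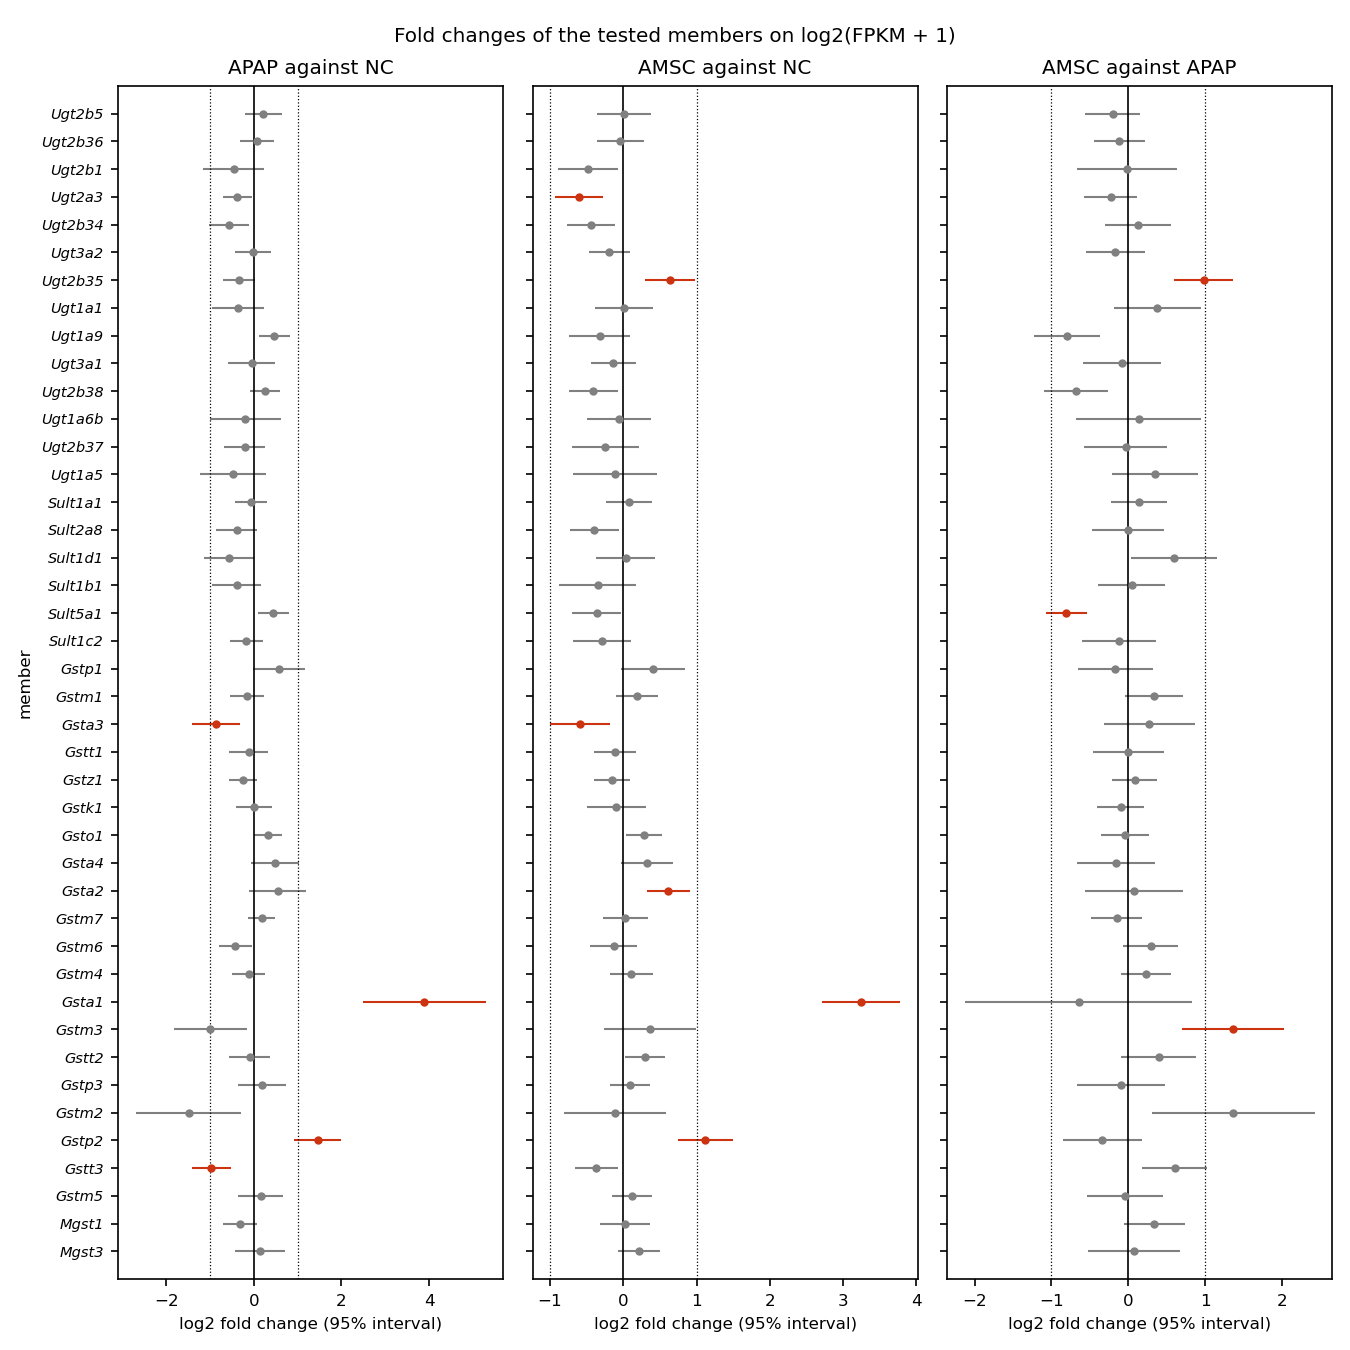
Log2 fold changes of the 42 tested members with 95% intervals from limma (x axis, log2(FPKM + 1) scale) for APAP against NC, AMSC against NC and AMSC against APAP. Red marks an adjusted p of at most 0.05 and dotted lines mark a log2 fold change of 1. Gsta1 lies far to the right in both comparisons with NC, at 3.89 and 3.24.

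One APAP library stood apart from the others in these genes. APAP replicate 1 lay more than 0.5 (log2) outside the range of both other APAP livers for 16 of the 42 tested members (38.1%), against 9.34% of all genes tested, while no other library did so for more than 3 members. It was higher for 9 members, including Ugt2b1, Ugt2b34, Ugt1a1, Ugt1a6b, Sult2a8 and Gstm2, and lower for 7, including Gsta1, Gsta2, Gsta4 and Gstp1. The correlation of log2 levels over genes was 0.970 and 0.972 between APAP replicate 1 and the other APAP libraries, and 0.981 between those. Pericentral markers, given below, were also highest in this APAP library. Without APAP replicate 1, 13 of 42 members passed in APAP against NC (31.0%), against 28.3% of all genes, so the share of members that passed was then close to the background.

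Those 13 were the 4 named above with Gsta2 (log2 fold change 0.88, adjusted p = 0.00838), Gsta4 (0.72, 0.0291), Gstp1 (0.81, 0.0397) and Gsto1 (0.42, 0.0423) higher, and Gstm2 (-1.95, 0.0230), Ugt2b1 (-0.79, 0.0267), Ugt2b34 (-0.76, 0.0140), Ugt1a1 (-0.64, 0.0375) and Sult2a8 (-0.59, 0.0286) lower. Gsta4, Gsto1, Ugt2b34 and Gstm2 were named after their values were seen. The label numbers were entered as a block after a check described under the processing, which cannot show that APAP and NC libraries are paired. That check used these same values, so the fit with the block is no independent support. With the number as a block 12 members passed (28.6%, against 32.0% of all genes). These were Gsta1, Gsta3, Gstp2 and Gstt3 with Gsta4, Gstm2, Gstm6, Ugt1a9, Ugt2a3, Ugt2b34, Sult1b1 and Sult1d1, of which 3 were DEGs (Gsta1, Gstp2 and Gstm2).

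The second comparison set AMSC against NC livers. Gsta1 and Gstp2 rose, as did Gsta2 and Ugt2b35, and Gsta3 and Ugt2a3 fell. Of the 42 tested members 6 passed (14.3%), against 26.0% of all genes tested, and 2 were DEGs (Gsta1 and Gstp2), where 6.01% of all genes tested were. The groups did not overlap for 14 members, against 43.5% of all genes tested. None of the SULT and MGST genes passed in limma, while 2 SULT and 0 MGST genes had an unadjusted p under 0.05 and voom passed 0 of both. Gsta1 rose by 3.24 on the log2 scale (SE 0.23, adjusted p = 6.82e-05) and Gstp2 by 1.12 (SE 0.16, adjusted p = 0.00223). Gsta2 rose by 0.62 (SE 0.13, adjusted p = 0.00963), a call lost with all 9 libraries in a single fit (0.111). Without NC replicate 1, Gstp2 was below the minimum fold change of a DEG, and its adjusted p was at most 0.0126 without any single library.

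Ugt2a3 fell by 0.61 on the log2 scale (SE 0.14, adjusted p = 0.0168), a call lost when all genes above 0 were tested (0.0777) and without NC replicate 1 (0.0673) or AMSC replicate 2 (0.0561). Gsta3 fell by 0.59 (SE 0.18, adjusted p = 0.0409). That call was lost when all genes above 0 were tested (0.165), with all 9 libraries in a single fit (0.101), and without NC replicate 1 (0.135), NC replicate 3 (0.0851), AMSC replicate 2 (0.0825) or AMSC replicate 3 (0.0826). Among members that did not pass, log2 fold changes in AMSC against NC were 0.01 for Ugt2b5 (95% interval -0.36 to 0.38), 0.03 for Mgst1 (-0.31 to 0.37), 0.08 for Sult1a1 (-0.23 to 0.39), 0.01 for Ugt1a1 (-0.38 to 0.41) and 0.19 for Gstm1 (-0.10 to 0.48). They were -0.48 for Ugt2b1 (-0.89 to -0.07, adjusted p = 0.0860), -0.39 for Sult2a8 (-0.72 to -0.06, adjusted p = 0.0814) and -0.44 for Ugt2b34 (adjusted p = 0.0537). Gstp1 had 0.40 (95% interval -0.03 to 0.84, adjusted p = 0.160). After quantile normalization Ugt2b5, Mgst1, Sult1a1, Sult1d1, Ugt1a1, Gstm1 and Gstp1 turned from positive to negative values, of which only Mgst1 passed (-0.39, adjusted p = 0.0370), so no direction is given for them.

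The third comparison set AMSC against APAP livers and asked which phase II genes differed with the cell treatment. Gstm3 and Ugt2b35 rose and Sult5a1 fell in AMSC livers. These were 3 of 42 members (7.14%), against 3.78% of all genes tested, and Gstm3 was the single DEG, where 1.96% of all genes tested were DEGs. The groups did not overlap for 8 members (Gstm2, Gstm3, Gstm4, Gstt3, Ugt2b35, Ugt2b38, Ugt1a9 and Sult5a1), against 27.0% of all genes tested. None of the MGST genes passed in limma or voom, and 0 had an unadjusted p under 0.05. This comparison shares the APAP libraries with the first and the AMSC libraries with the second, so the 3 are not independent.

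Gstm3 (ENSMUSG00000004038, chromosome 3, 107963696 to 107969283), a mu-class GST, stood at 6.31, 7.94 and 14.9 FPKM in APAP and at 20.4, 25.0 and 30.2 FPKM in AMSC livers. These groups did not overlap, while the NC livers (27.2, 11.95 and 21.2 FPKM) overlapped both. In AMSC against APAP the log2 fold change was 1.36 (SE 0.29, adjusted p = 0.0465). This call is close to the threshold and was lost with a pseudocount of 0.1 (0.0502), when all genes above 0 were tested (0.208), and without APAP replicate 1 (0.0733), APAP replicate 2 (0.0937), AMSC replicate 2 (0.0858), AMSC replicate 3 (0.148) or AMSC replicate 4 (0.153). Gstm2, the neighbouring mu-class gene, had 12.4, 14.0 and 18.4 FPKM in AMSC livers, all above the APAP livers, and gave 1.37 on the log2 scale (SE 0.46, adjusted p = 0.145). Without APAP replicate 1 it passed (1.83, adjusted p = 0.0452), and Gsta1 then fell (-1.46, adjusted p = 0.0490). With APAP replicate 1, Gsta1 had -0.65 (95% interval -2.13 to 0.83, adjusted p = 0.630).

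Ugt2b35 (ENSMUSG00000035811, chromosome 5, 87000860 to 87013275) was at 79.6, 61.0 and 68.1 FPKM in NC, at 55.8, 46.4 and 62.2 FPKM in APAP, and at 106, 128 and 93.2 FPKM in AMSC livers. Every AMSC liver was above every other liver. Ugt2b35 rose by 0.98 on the log2 scale against APAP (SE 0.17, adjusted p = 0.0267) and by 0.64 against NC (SE 0.15, adjusted p = 0.0172). Against APAP the call was lost when all genes above 0 were tested (0.128) and without APAP replicate 2 (0.0559), APAP replicate 3 (0.0519), AMSC replicate 2 (0.0831), AMSC replicate 3 (0.0966) or AMSC replicate 4 (0.0590), and against NC when all genes above 0 were tested (0.0868) and without NC replicate 2 (0.0628). Its neighbours Ugt2b5, Ugt2b36 and Ugt2b1 had log2 fold changes of -0.20, -0.12 and -0.02 against APAP, none of which passed.

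Sult5a1 (ENSMUSG00000000739), a SULT whose substrates are little known, was low throughout, at 2.36, 1.75 and 2.93 FPKM in NC, 3.26, 3.62 and 3.67 FPKM in APAP, and 1.68, 1.64 and 1.42 FPKM in AMSC livers. The AMSC livers lay below the NC livers and the APAP livers above them, with no overlap. The log2 fold change against APAP was -0.81 (SE 0.12, adjusted p = 0.0144). The call was lost when all genes above 0 were tested (0.0661) and without APAP replicate 3 (0.0540), AMSC replicate 2 (0.0530), AMSC replicate 3 (0.0551) or AMSC replicate 4 (0.0694). Ugt1a9 had a fold change of similar size (-0.80, SE 0.18, adjusted p = 0.0586), with AMSC livers at 13.6, 21.1 and 19.6 FPKM, all under the APAP livers, but it did not pass.

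**Figure D4:**
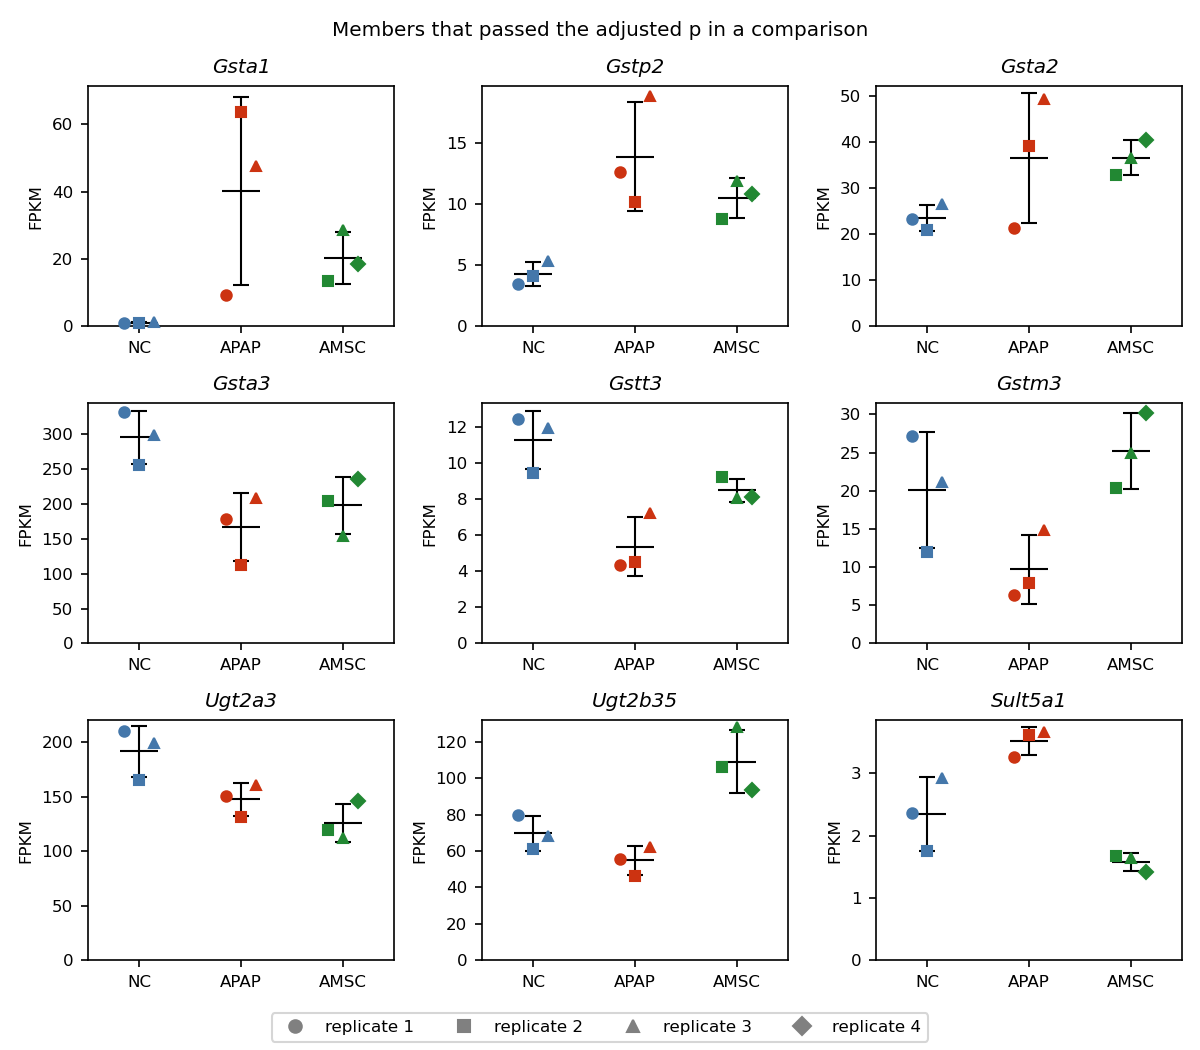
FPKM (y axis, from 0) of the 9 members that passed the adjusted p in any comparison, by group (x axis). Symbols are libraries with their replicate number, horizontal lines means and error bars SD (n = 3). In the Gsta1 panel NC livers lie near 1.14 FPKM and APAP replicate 1 lies under the other APAP livers, and in the Ugt2b35 panel the AMSC livers lie above all others.

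APAP injury is known to centre on pericentral hepatocytes, and zonal markers were read beside the members. The 12 pericentral markers summed to 4922 to 6198 FPKM in NC livers, to 2578, 556 and 1293 FPKM in APAP livers 1, 2 and 3, and to 4595 to 4959 FPKM in AMSC livers. All APAP livers were below all others, and APAP liver 1 was the highest of the 3. Of the 9 tested markers, 8 fell in APAP against NC and 0 rose, with a median log2 fold change of -2.31, and in AMSC against NC 5 fell and 0 rose, with a median of -0.77. In AMSC against APAP 4 rose (Cyp2e1, Oat, Glul and Slc1a2), which became 0 when all genes above 0 were tested and 2 without APAP replicate 3 or any single AMSC replicate. Glul, the glutamine synthetase of the innermost pericentral hepatocytes, was at 253 ± 14.6 FPKM in NC, 31.9 ± 12.6 in APAP and 137 ± 24.4 in AMSC livers (SD, n = 3), and fell by 0.90 in AMSC against NC (adjusted p = 0.00338). Cyp2e1, which makes the reactive metabolite, was at 3408 ± 181 FPKM in NC, 847 ± 635 in APAP and 3619 ± 199 in AMSC livers (SD, n = 3). Of the 12 periportal markers, 5 rose and 0 fell in APAP against NC, and 3 rose and 3 fell in AMSC against NC. In AMSC against APAP 0 rose and 4 fell, calls lost when all genes above 0 were tested. Beside these zonal counts stand the shares of all genes tested. In APAP against NC 12.8% rose and 13.1% fell, in AMSC against NC 14.1% and 11.9%, and in AMSC against APAP 1.64% and 2.14%. Like the pericentral sum, the group means of Gstm3 and Gstm2 were lowest in APAP livers. Without APAP replicate 1, 9 of the 9 tested pericentral markers fell in APAP against NC and 7 rose in AMSC against APAP. The part of pericentral cells in the results on Gstm3, Gstm2, Gsta3 and Gstt3 was not tested.

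**Figure D5:**
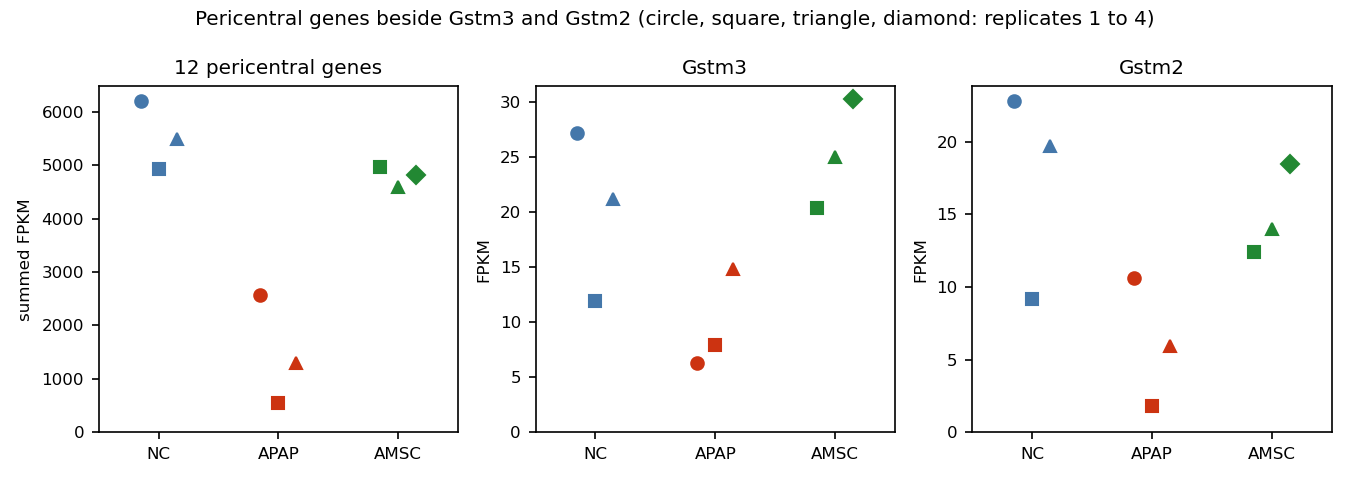
Summed FPKM of the 12 pericentral markers and FPKM of Gstm3 and Gstm2 (y axes, from 0) by group (x axis), with a symbol per library. All APAP livers lie below the AMSC livers in each panel, and APAP replicate 1 is the highest APAP library for the markers and for Gstm2 but the lowest for Gstm3.

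Markers of other cells moved as well. The 6 erythroid markers summed to 135 to 254 FPKM in NC, 306 to 1406 in APAP and 183 to 312 in AMSC livers, and the 6 neutrophil markers to 0.330 to 1.92, 7.52 to 34.8 and 4.24 to 5.98 FPKM. The 6 Kupffer cell and macrophage markers summed to 50.5 to 103, 70.5 to 185 and 42.1 to 68.4 FPKM, the 6 endothelial markers to 18.4 to 41.6, 21.2 to 58.1 and 19.3 to 21.0 FPKM, and the 6 cholangiocyte markers to 18.9 to 40.3, 57.9 to 98.0 and 27.5 to 50.9 FPKM. The 8 stellate and stromal markers, which would also mark the injected cells, summed to 18.4 to 33.8, 24.1 to 54.9 and 23.1 to 40.3 FPKM in the same order of groups. No marker of these lists was at 0 in all libraries, and the part of these cells in the members' results was not tested.

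The supply of the cosubstrates was read from lists of genes outside the families. Their counts, and those of the lists below, stand beside the shares of all genes tested that passed. In APAP against NC 12.8% rose and 13.1% fell, and in AMSC against NC 14.1% rose and 11.9% fell. For glutathione, 11 of 14 listed genes were tested, of which 6 rose and 2 fell in APAP against NC and 8 rose and 2 fell in AMSC against NC, and the median log2 fold change was 0.40 and 0.53 respectively. The 2 that fell were Chac2 and Ggt6 in both comparisons, and Chac1 was among those that rose. The list thus mixes synthesis and breakdown of glutathione, and its counts and medians give no direction of supply. The 8 became 4 with the replicate block, and 5 when all genes above 0 were tested, after quantile normalization and without NC replicate 2. Gclc, the catalytic subunit of the rate-limiting enzyme of glutathione synthesis, was at 42.5 ± 10.2 FPKM in NC, 189 ± 93.4 in APAP and 252 ± 99.1 in AMSC livers (SD, n = 3). Against NC, Gclc rose by 2.03 on the log2 scale in APAP livers (SE 0.35, adjusted p = 0.00575, or 0.0553 with the filter dropped), and it also rose in AMSC livers (adjusted p = 0.000535). Chac1, which breaks glutathione down rather than supplying it, went from 0.347 ± 0.0963 FPKM in NC to 6.38, 26.0 and 24.8 FPKM in the APAP livers and 63.1 ± 10.2 FPKM in AMSC livers, and rose by 3.68 and 5.56 on the log2 scale against NC (adjusted p = 0.00163 and 3.55e-07). Chac2, of the same function, fell by 1.02 and 1.41 (adjusted p = 0.00424 and 0.000731). In AMSC against APAP, 0 of the 11 passed in limma, with 2 at an unadjusted p under 0.05.

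For UDP-glucuronic acid, all 9 listed genes were tested, and 2 rose and 3 fell in APAP against NC. Pgm1 rose by 1.48 on the log2 scale in APAP against NC (adjusted p = 0.00503 from limma), a call lost in 0 of 12 alternatives. In AMSC against APAP Pgm1 fell by 0.91 (adjusted p = 0.0366 from limma), a call lost in 6 of 12. Ugdh, which oxidizes UDP-glucose to UDP-glucuronic acid, was at 18.4 ± 3.53 FPKM in NC, 29.7 ± 6.11 in APAP and 47.0 ± 7.96 in AMSC livers, with log2 fold changes against NC of 0.66 (SE 0.20, adjusted p = 0.0469) and 1.31 (SE 0.17, adjusted p = 0.00132). The first of these calls was lost in 7 of 13 alternatives, including the replicate block and 5 of 6 fits without a single library, all but that without APAP replicate 1 (adjusted p up to 0.155), and the second in 0 of 13. Slc35b4, a transporter of UDP-sugars, fell by 1.07 in APAP against NC (adjusted p = 0.00370). For PAPS, 10 of 11 listed genes were tested. In APAP against NC 2 of them fell and 0 rose, and in AMSC against NC 5 fell and 1 rose. Of all genes tested, 25.9% and 26.0% passed in these comparisons, in either direction. The 2 became 0 without NC replicate 1, NC replicate 2 or APAP replicate 2. The 5 became 0 with the replicate block and 2 when all genes above 0 were tested. They became 3 with all 9 libraries in a single fit and without NC replicate 1, NC replicate 2, AMSC replicate 2 or AMSC replicate 4. Slc26a1, a sulfate transporter, went from 49.1 ± 9.53 FPKM in NC to 22.4 ± 7.43 in APAP and 26.0 ± 4.57 in AMSC livers. It fell by 1.12 in APAP (SE 0.24, adjusted p = 0.0134, up to 0.0808 over the alternatives) and by 0.89 in AMSC against NC (SE 0.18, adjusted p = 0.00895, up to 0.104). In AMSC against NC, Papss1, which makes PAPS, fell by 0.66 (SE 0.13, adjusted p = 0.00741), a call lost with the replicate block (0.130). The gene that rose there was Cdo1, by 0.85 (adjusted p = 0.00199 from limma), a call lost in 0 of 13 alternatives. The 11 listed genes summed to 956 to 1133 FPKM in NC, 1086 to 1240 in APAP and 1572 to 1628 in AMSC livers.

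Of 16 other phase II enzymes, 15 were tested, and 5 fell and 0 rose in APAP against NC, where 25.9% of all genes tested passed. Nat2, an arylamine N-acetyltransferase, fell from 8.94 ± 1.36 to 3.29 ± 0.239 FPKM (log2 fold change -1.21, SE 0.13, adjusted p = 0.000982) and was higher, at 5.99 ± 1.13 FPKM, in AMSC than in APAP livers (0.69, SE 0.14, adjusted p = 0.0453). That last call of Nat2 was lost in 10 of 13 alternatives, among them voom and each of the 6 fits without a single library (adjusted p up to 0.145). The 5 enzymes that fell in APAP against NC became 2 when all genes above 0 were tested and 3 without any NC replicate, APAP replicate 2 or APAP replicate 3. Among 7 tested deconjugating and later enzymes, 2 fell and 0 rose in APAP against NC, a share near the 25.9% of all genes tested that passed. Nat8, which acetylates cysteine conjugates in the last step of mercapturate formation, fell from 12.6 ± 4.37 to 5.23 ± 0.522 FPKM in APAP (-1.09, SE 0.21, adjusted p = 0.00950), a call lost when all genes above 0 were tested (0.0639).

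The receptors and hepatic factors known to act on phase II genes were read last. Of 14 listed regulators, all tested, 6 fell and 1 rose in APAP against NC, with a median log2 fold change of -0.55. Of all genes tested, 13.1% fell and 12.8% rose in that comparison. Ahr, the aryl hydrocarbon receptor, was at 6.45 ± 1.80 FPKM in NC, 1.81 ± 0.778 in APAP and 6.74 ± 2.26 in AMSC livers, with -1.42 in APAP against NC (SE 0.23, adjusted p = 0.00475) and 1.46 in AMSC against APAP (SE 0.25, adjusted p = 0.0273). The latter call was lost when all genes above 0 were tested and without any single library other than APAP replicate 1 (adjusted p up to 0.153). Nr1h4 (FXR) and Foxa2 fell by 1.005 and 1.31 on the log2 scale in APAP against NC (adjusted p = 0.00535 and 0.0104), and Nr1i2, the pregnane X receptor, rose by 0.48 (adjusted p = 0.0453). The call of Nr1i2 was lost in 8 of 13 alternatives, namely with all genes above 0, quantile normalization or a single fit, and without any NC replicate, APAP replicate 2 or APAP replicate 3 (adjusted p up to 0.139), and that of Foxa2 with all genes above 0 (0.0731). The 6 regulators that fell became 2 when all genes above 0 were tested and 3 without NC replicate 1 or NC replicate 2. Of 13 tested target genes of these receptors and of Nrf2 outside the families, 6 rose and 1 fell in APAP against NC, and 9 rose and 1 fell in AMSC against NC. Hmox1 went from 6.34 ± 3.10 FPKM in NC to 835 ± 280 in APAP and 715 ± 336 in AMSC livers, Srxn1 from 14.7 ± 2.67 to 192 ± 134 and 149 ± 58.3 FPKM, and Tiparp, a target of Ahr, from 0.980 ± 0.130 to 27.04 ± 8.04 and 7.52 ± 0.974 FPKM. Tiparp rose in APAP livers while Ahr fell, with log2 fold changes of 3.78 (adjusted p = 6.20e-05) and -1.42. Cyp2a5 fell from 519 ± 138 to 26.2 ± 27.1 FPKM in APAP livers (-4.87, SE 0.78, adjusted p = 0.00433, or 0.0509 with the filter dropped).

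Of the members under the filter, 4 are given here as values, chosen in part after they were seen. Ugt1a6a, a UGT of acetaminophen and other phenols, was at 0.695, 0.697 and 0.728 FPKM in NC, 0.104, 0.187 and 0.0518 FPKM in APAP, and 0.759, 0.839 and 0.339 FPKM in AMSC livers, from 50, 52 and 54 reads in NC and 6, 10 and 3 reads in APAP livers. All APAP livers were below all others. When all genes above 0 were tested, Ugt1a6a fell by 0.62 in APAP against NC (SE 0.06, adjusted p = 0.0115), and its coding sequence is 98.4% identical to that of Ugt1a6b. The longest coding sequence annotated for each gene was compared. For Ugt1a7c it was 100% identical to that of Ugt1a6a, so this value may not compare the first exons that set these genes apart. Ugt1a7c was at 1.57 FPKM (89 reads) in APAP liver 1, and at no more than 0.110 FPKM in any other library. Sult1e1, the estrogen sulfotransferase, was at 0.0483, 0.233 and 0.0936 FPKM in NC, 0.180, 0.975 and 0.419 FPKM in APAP, and 0.963, 1.49 and 0.375 FPKM in AMSC livers, from at most 24 reads. Sult2a7 had group means of 1.08, 0.694 and 1.02 FPKM.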

How the data were processed

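The authors deposited FPKM values per gene, with gene length and coordinates. The aligner, counter and annotation are not given in the sources used here, and the builds in the submitters' processing notes are GRCm38 and mm10. Of 54409 gene identifiers shared with GENCODE vM21 (GRCm38), 98.3% had the same start and end. FPKM times gene length was a whole multiple of one step per library for 100% of values above 0 (tolerance 0.1 reads), which recovered whole reads, and the denominators scaled as size factors computed here by the median of ratios. A total of 0 columns of per-sample values were left unused.

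Tests covered the 9699 genes averaging 1 FPKM or more, on log2(FPKM + 1) with limma 3.58.1 (lmFit, eBayes with trend) in R 4.3.3, with the 2 groups compared in each fit and Benjamini-Hochberg adjustment over all genes tested. The fits were tested on simulated data. The DEG thresholds were 0.05 for the adjusted p and 1 for the absolute log2 fold change. The study ran DESeq2 on its counts with 3 biological replicates per group, and limma was used here because FPKM values are not counts. A non-overlap means that every library of one group was above every library of the other. Members, lists and tests were chosen with earlier results of these data known. Named members were the DEGs, the 4 most abundant of each family, up to 15 others that passed, and 12 listed enzymes such as Ugt1a1 and Sult1a1, whatever their values. Of other lists, values of some members were chosen after they were seen. Other members given with values were named after these were seen.

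Same-numbered APAP and NC libraries deviated together from their group means (r = 0.213, 0.160 and 0.378), and the replicate number was entered as a block. Libraries of different numbers reached r as high. It was 0.382 between AMSC replicate 2 and NC replicate 3 and 0.409 between AMSC replicate 2 and APAP replicate 3. These values therefore cannot show that the libraries are paired. The fit with the block removes the deviation shared by same-numbered libraries, so its calls are no independent check of the main fit. The title of NC replicate 3 carries another date than the titles of all other libraries and another number than its description. The labels therefore do not settle a pairing either. Same-numbered libraries in the AMSC comparisons, 2 pairs each, had r from -0.309 to -0.104 and share only a number. As alternatives, the pseudocount was set to 0.1, the filter was dropped or raised to 5 FPKM, values were quantile normalized, the 9 libraries entered one fit, the replicate number entered as a block, voom was run on recovered reads, and each library was left out. Sequences, coding identities and motifs came from RefSeq (GRCm38.p6) and GENCODE, where 59 of the 67 members had a RefSeq upstream window. Figures were drawn with Python 3.11.15 and matplotlib 3.10.9.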

Additional observations from a re-analysis of the deposited data

How the results depend on the processing

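In APAP against NC, the members called DEGs numbered 2, against 4 after quantile normalization and 2 to 5 when single libraries were left out (4 without NC replicate 2, 5 without APAP replicate 3). The 4 that passed the adjusted p became 7 after quantile normalization, 8 with all 9 libraries in a single fit, 12 with the replicate block and 3 to 13 without single libraries, with 13 reached without APAP replicate 1. In AMSC against NC, the 2 DEGs became 1 with the replicate block and 1 to 2 without single libraries (1 without NC replicate 1). The 6 that passed became 3 when all genes above 0 were tested, 12 after quantile normalization, 2 with the replicate block and 4 to 8 without single libraries. In AMSC against APAP, the single DEG became 0 when all genes above 0 were tested, 2 under voom, 3 with the replicate block and 0 to 2 without single libraries (2 without APAP replicate 1, and 0 without APAP replicate 2 or any AMSC replicate). The 3 that passed became 0 when all genes above 0 were tested, 5 with all 9 libraries in a single fit and 0 to 4 without single libraries (1 without APAP replicate 2, and 0 without AMSC replicate 2, 3 or 4). At an unadjusted p under 0.05, limma gave 7 members in the test of all genes above 0 and 7 without each AMSC replicate, and 9 without APAP replicate 2. In the AMSC comparisons the replicate block rests on a shared number only. It left Gsta1 and Gstp2 passing against NC, and Gsta1, Gstm2, Gstm3 and Ugt2b35 against APAP.

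Of 933 alternative values of the named genes, 854 kept their side of the threshold, 41 lost the call, 30 gained it and 1 reversed into a call. The remaining 7 had no call in either fit and changed sign by a larger amount, set against the standard error. A value without a call changed sign in 56 of the 933, these 7 among them. The one that reversed was Mgst1 in AMSC against NC, at -0.39 (adjusted p = 0.0370) after quantile normalization. The cause of these changes was not tested. Testing all genes above 0 changes both the adjustment and the eBayes fit, which then cover more genes.

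With 3 livers a group, fold changes of members with a wide spread, such as Gstp1, Ugt2b1 and Ugt1a6b, could not be told from 0. Depth limits the members with few reads, such as Gsta1 in NC livers and those under 1 FPKM. Near copies and shared exons limit Gsta1, Gsta2, Gstp2, the Ugt1a genes, Ugt2a1, Ugt2a2 and Ugt2b38, and at lower identity also Gstm2, Gstm3 and Ugt2b35. RNA levels say nothing here of enzyme protein or activity.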
